A study of Bos taurus with 24 samples.

Results

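The genes described here are 3 insulin-like growth factor (IGF) binding proteins, IGFBP2, IGFBP3 and IGFBP6, with the glycoprotein hormone gene STC1 and the insulin receptor gene INSR. They were found by gene symbol among the array features and came to 5 genes on 6 features, of 9026 genes tested and 17418 features in the table. IGFBP3 had 2 features and each of the other genes had 1. All 5 genes passed the filter on missing values.

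The tissue was whole ovarian follicle, the largest one from each of 16 heifers, 8 to 12 mm across. Total RNA of 2 follicles was hybridised to each of 24 two-colour arrays, and each follicle was on 3 arrays, with both dyes used for every follicle. The follicles carry only an identifier in the labels (8, 26, 27, 31, 33, 46, 861, C10, C12, C13, C22, C26, C32, C35, H893 and J980), so the comparison is between single follicles of single animals. No treatment, stage or age is given for any of them.

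IGFs act on follicular granulosa and theca cells together with gonadotrophins, and IGF binding proteins hold IGFs in solution and limit how much reaches the IGF receptor. Proteases of the pappalysin family free IGFs by cutting some binding proteins, and stanniocalcin-1, the product of STC1, inhibits those proteases. INSR is the receptor tyrosine kinase for insulin and can pair with the IGF receptor. In cattle, the loss of the smaller IGF binding proteins from follicular fluid accompanies the growth of a dominant follicle.

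A level is the estimated log2 amount of a gene in a follicle relative to the mean of the 16 follicles, fitted through the loop of arrays that links them. Its standard error (SE) comes from array error over at most 3 arrays and holds no spread between animals. The ratios are read here as log2 of Cy5 over Cy3. Neither the base nor the direction is written in the labels, which name the Cy5 follicle before the Cy3 one on each array. The inverse would turn every sign and leave tests and correlations as they are. Levels of different genes cannot be set against each other, since each is relative to its own mean.

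All 5 genes differed between the follicles (adjusted p under 0.05 by the limma-moderated F test). Over all genes, 11.8% did, 1061 of 9026. The 5 were chosen with such results known, so the count is a description. The SD of the 16 levels was 0.56 for IGFBP2, 0.38 for IGFBP3, 0.41 for IGFBP6, 0.73 for STC1 and 0.40 for INSR. The median was 0.17 over all genes and 0.29 over those that passed the F test, as these 5 did. For each gene, the levels of the follicles formed a near-continuous order, in which 1 of 15 neighbouring steps was larger than 2 SE of that difference.

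**Figure D1:**
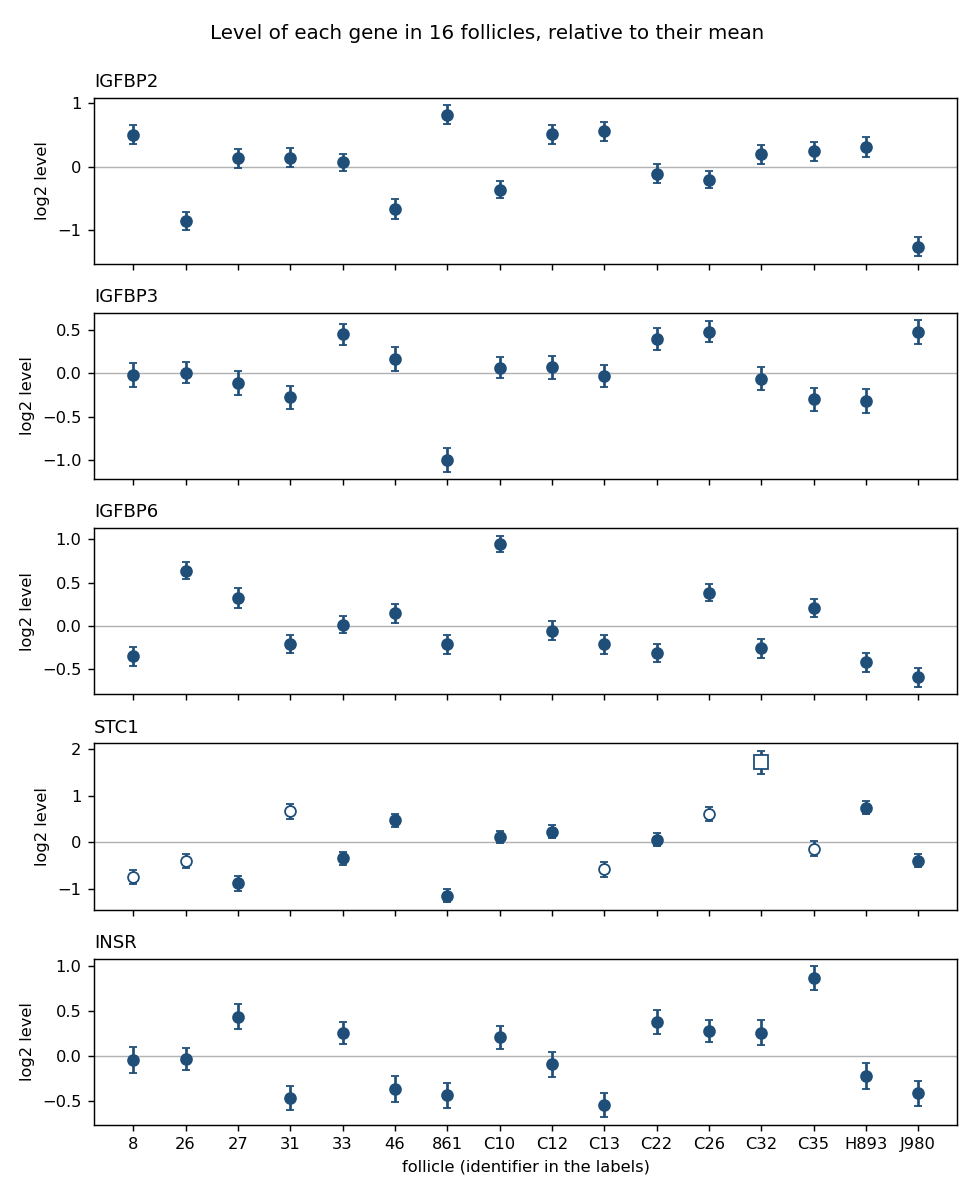
Log2 level (y axis, relative to the mean of the 16 follicles) of each gene in each follicle (x axis, identifier), with bars of 1 SE. Filled circles rest on 3 arrays, open circles on 2 and the open square on 1. IGFBP2 was highest in 861 and lowest in J980, IGFBP3 lowest in 861, IGFBP6 highest in C10, STC1 highest in C32 and INSR highest in C35.

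IGFBP2, a binding protein of IGF1 and IGF2 made by granulosa cells in many species, had a level of 0.82 ± 0.15 in follicle 861. The next were C13 at 0.56 ± 0.15, C12 at 0.51 ± 0.15 and follicle 8 at 0.50 ± 0.15. The median was 0.14. At the other end were follicle 46 at -0.67 ± 0.15, follicle 26 at -0.86 ± 0.14 and J980 at -1.26 ± 0.15. The low end thus held 3 follicles set well apart from the mean, and the step of 0.41 ± 0.16 between 26 and J980 was the one larger than 2 SE.

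The 861 to J980 difference was 2.08 ± 0.25, or 4.23-fold, with an adjusted p of 2.73e-04 in the limma-moderated F test of all follicles. No array held both follicles, which lie in parts of the loop joined by 2 arrays only, so this difference is indirect. Each was set against other follicles. J980 over follicle 8 had a log2 ratio of -2.08 and J980 over 27 had -1.34, while follicle 26 over J980 had 0.26. Follicle 861 over C10 had 1.03, and follicle 46 over 861 had -1.67. Without J980 and its 3 arrays IGFBP2 still differed (adjusted p = 0.00296, limma), and follicle 26 was then the lowest.

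IGFBP3, the main carrier of IGFs in blood, was set apart by 1 follicle. Its level was -1.0 ± 0.13 in 861, and the next lowest, H893, was at -0.32 ± 0.14, a step of 0.68 ± 0.14. The highest follicles were C26 at 0.48 ± 0.12, J980 at 0.48 ± 0.13, 33 at 0.45 ± 0.12 and C22 at 0.40 ± 0.13, with a median of -0.0058. These 4 did not differ from each other beyond their errors. The range of 1.48 ± 0.21 was 2.79-fold, with an adjusted p of 0.00415 (limma). The arrays of 861 gave -1.27 for 861 over C10, 1.02 for 46 over 861 and 0.54 for H893 over 861. Without 861 and its 3 arrays, a check added after these values were seen, the adjusted p was 0.0728 (limma), and the call was lost. In that fit 535 genes passed in place of 1061, and the SD of the IGFBP3 levels was 0.28. Whether the call was lost through the level of 861 or through the loss of 3 arrays was not tested. The 2 features of IGFBP3 had levels that correlated at r = 0.867 and rho = 0.782 over the 16 follicles, and each passed alone in the fit of all features (adjusted p = 0.00194 and 0.0143, limma). Both were lowest in 861, at -1.05 and -0.95.

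IGFBP6, a binding protein that prefers IGF2, was highest in C10 at 0.94 ± 0.10 and in follicle 26 at 0.64 ± 0.10. The step between them was 0.31 ± 0.13. C26 at 0.38 ± 0.10 and 27 at 0.32 ± 0.11 followed. The median was -0.13. The lowest were follicle 8 at -0.35 ± 0.11, H893 at -0.42 ± 0.11 and J980 at -0.60 ± 0.11. Above the mean were 7 of 16 follicles. The range was 1.54 ± 0.16, or 2.91-fold (adjusted p = 3.18e-04, limma). On single arrays, 861 over C10 was at -1.12, 31 over C10 at -1.08 and 26 over J980 at 1.36. J980 was also below 27, at -0.92, but level with follicle 8, at -0.03.

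STC1 had a range of 2.87 ± 0.32 or 7.30-fold, with an adjusted p of 9.19e-04 (limma). C32 was highest at 1.72 ± 0.25, then H893 at 0.75 ± 0.14, 31 at 0.67 ± 0.16 and C26 at 0.61 ± 0.15. The median was -0.04. The lowest were follicle 8 at -0.75 ± 0.16, 27 at -0.88 ± 0.17 and 861 at -1.15 ± 0.14.

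The feature of STC1 had a value on 20 arrays only, which left 4 residual degrees of freedom, against 8 for the other genes. Of the 3 arrays of C32, 1 had a value, with 27 over C32 at -2.22, so the level of C32 was not repeated. The range and the step of 0.97 ± 0.34 between C32 and H893 rest on that value. Among the other follicles the levels lay between 0.75 in H893 and -1.15 in 861. In the fit without C32 the SD of the STC1 levels was 0.59. The low level of 861 was repeated on 3 arrays, with 861 over C10 at -0.86, 46 over 861 at 2.06 and H893 over 861 at 2.24. Without C32 and its arrays STC1 still differed (adjusted p = 0.00403, limma, added after the values were seen). The levels of STC1 without J980 could not be estimated.

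INSR was highest in C35 at 0.86 ± 0.14, and 27 was next at 0.44 ± 0.14, a step of 0.43 ± 0.14. C22 was at 0.37 ± 0.14, and the median was -0.04. The lowest were 861 at -0.44 ± 0.14, 31 at -0.47 ± 0.14 and C13 at -0.55 ± 0.14. These 3 follicles did not differ beyond their errors. The range of 1.41 ± 0.23 was 2.66-fold (adjusted p = 0.0100, limma). On single arrays, C35 over 27 was at 0.76, 26 over C35 at -0.51 and C22 over C35 at -0.26. For C13, 31 over C13 was at 0.42 and 33 over C13 at 1.22. C13 over 46 was at 0.30, where the fit with the dye term gave 0.09, and 46 was itself low at -0.37 ± 0.14. These ratios include the shift toward Cy5 described below, 0.27 for INSR, which is most of the 0.30 of C13 over 46. Without C35 and its arrays the adjusted p was 0.0468 (limma, added after the values were seen).

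The calls of STC1 and INSR needed a term for dye bias. The dye term, the mean shift toward Cy5 shared by all arrays, was 0.39 for STC1 and 0.27 for INSR, against -0.12 for IGFBP2, -0.09 for IGFBP3 and 0.09 for IGFBP6. Without it the adjusted p was 0.119 for STC1 and 0.458 for INSR (limma), while the 3 binding proteins kept their calls. In that fit STC1 was highest in H893 and lowest in 27, in place of C32 and 861, so the ends of its range also depend on the dye term.

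**Figure D2:**
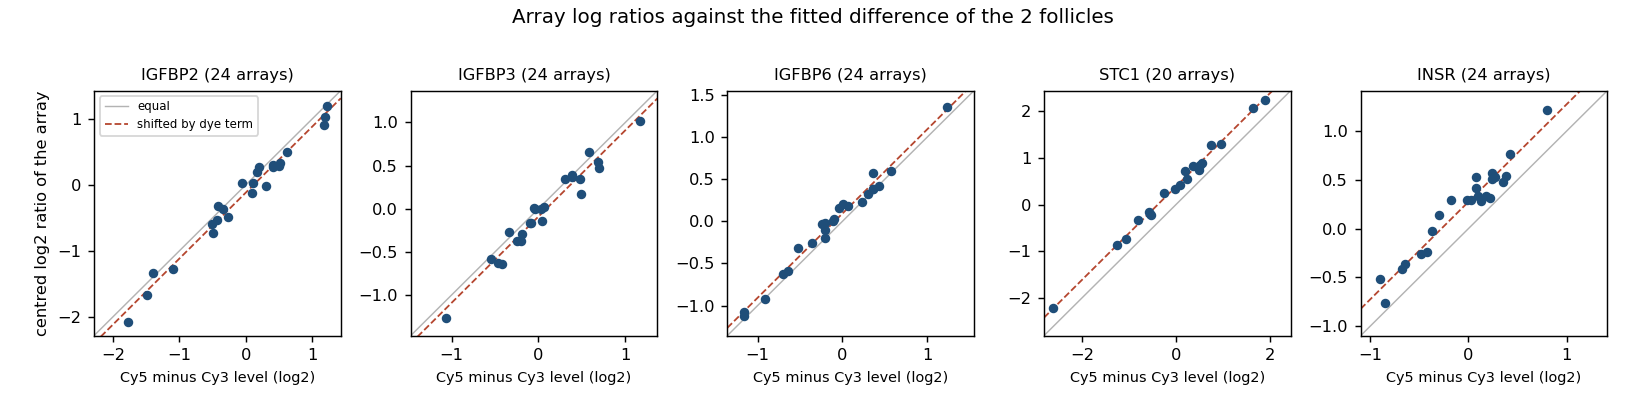
Centred log2 ratio of each array (y axis) against the fitted Cy5 minus Cy3 difference in level of its 2 follicles (x axis), 1 point per array. The grey line marks equality and the dashed line adds the dye term, which is 0.39 for STC1 and 0.27 for INSR and nearer 0 for the 3 binding proteins.

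Of 28 other measured genes of IGF and insulin signalling, 1 passed (3.57%), against 11.8% of all genes. The list holds ligands, receptors, other binding proteins, proteases and signal transducers. It leaves out the 5 genes described here, which were chosen with such results known. Its share therefore does not stand for the whole pathway. The median SD of the levels of the 28 genes was 0.16. The gene that passed was HTRA1, a secreted serine protease, at 1.14 ± 0.23 in follicle 46 and -0.65 ± 0.21 in follicle 33 (adjusted p = 0.0166, limma). Next by p were EIF4EBP1, a repressor of translation initiation downstream of insulin, at 0.48 ± 0.16 in follicle 8 and -0.45 ± 0.15 in J980 (adjusted p = 0.0646, limma), and IGFBP4, at 0.57 ± 0.22 in J980 and -0.64 ± 0.20 in follicle 33 (adjusted p = 0.0824, limma).

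Among the ligands, IGF1 (adjusted p = 0.278) and IGF2 (adjusted p = 0.645) did not pass the limma test, nor did the receptor IGF1R (adjusted p = 0.633). IGF2 was read from 4 features that did not track each other (median r between them -0.165), so its mean is uncertain. In the RefSeq gene order of assembly ARS-UCD2.0, IGFBP2 lies next to IGFBP5 and IGFBP3 next to IGFBP1. Neither neighbour passed (adjusted p = 0.609 for IGFBP5 and 0.715 for IGFBP1, limma), and the 2 features of IGFBP5 had r = -0.168.

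The levels of the 5 genes were set against each other and against the mean levels of 7 gene lists, in 45 relations with permutation tests of 100000 resamples, two-sided, adjusted over the 45. By Pearson's r 3 relations passed and by Spearman's rho 2. At an unadjusted p under 0.05 there were 7 by r. Neighbours in the loop share arrays, so the errors of their levels are linked, which the permutation test does not take into account. The loop consists of 2 arcs of 8 follicles, joined by the arrays of C10 with 26 and of C26 with 33. Arc A holds 8, 26, 27, C22, C26, C32, C35 and J980, and arc B the others. Differences between arcs therefore rest on those arrays, and r is also given within each arc.

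IGFBP6 followed the genes of extracellular matrix and of smooth muscle and stroma. With the matrix list, r was 0.849 (permutation p = 5e-05, adjusted 0.00112) while rho reached 0.826 (permutation p = 1.5e-04, adjusted 0.00337). It was 0.826 without C10 and C26, the 2 follicles farthest from the median of the list, and 0.81 in a fit without J980. Within arc A r was 0.954 and within arc B 0.844. With the smooth muscle and stroma list r was 0.837 (permutation p = 2e-05, adjusted 9e-04) while rho reached 0.841 (permutation p = 5e-05, adjusted 0.00225). This r was 0.821 without 861 and J980, 0.875 within arc A and 0.814 within arc B. Without the array of C10 with 26, which joins the arcs, r with the matrix list was 0.429 (adjusted p = 0.216) and the call was lost.

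Of 38 matrix genes, 15 (39.5%) had r of at least 0.5 with IGFBP6 and 1 had r of -0.5 or less. Among all genes 5.2% had r of at least 0.5, and 10.8% among those past the F test. The matrix gene of largest absolute r was COL6A3, a chain of type VI collagen (r = 0.902). It was at 0.91 ± 0.10 in C10 and -0.60 ± 0.12 in H893. The matrix list held 15 of 38 genes (39.5%) that differed between follicles, beside 11.8% of all genes. Its mean level was 0.20 in C26, the highest, and -0.21 in 861, the lowest. The stroma list held 3 of 12 (25%), with a mean level of 0.18 in C10 and -0.17 in J980. With those 3 alone, r with IGFBP6 was 0.643 and the call was lost (adjusted p = 0.11). In the stroma list the features of ACTA2, TAGLN and TPM1 did not track each other (median r -0.01, 0.06 and -0.12), while those of TCF21 did (0.83). In the matrix list those of LAMB2, ELN and SPARC did not (median r -0.35, -0.28 and -0.16). Those of POSTN, FBLN1 and DCN did (0.93, 0.75 and 0.62). The mean levels of both lists are thus uncertain. In whole-follicle RNA, fewer cells of a type and less RNA per cell cannot be told apart, and the part of cell composition in these relations was not tested.

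**Figure D3:**
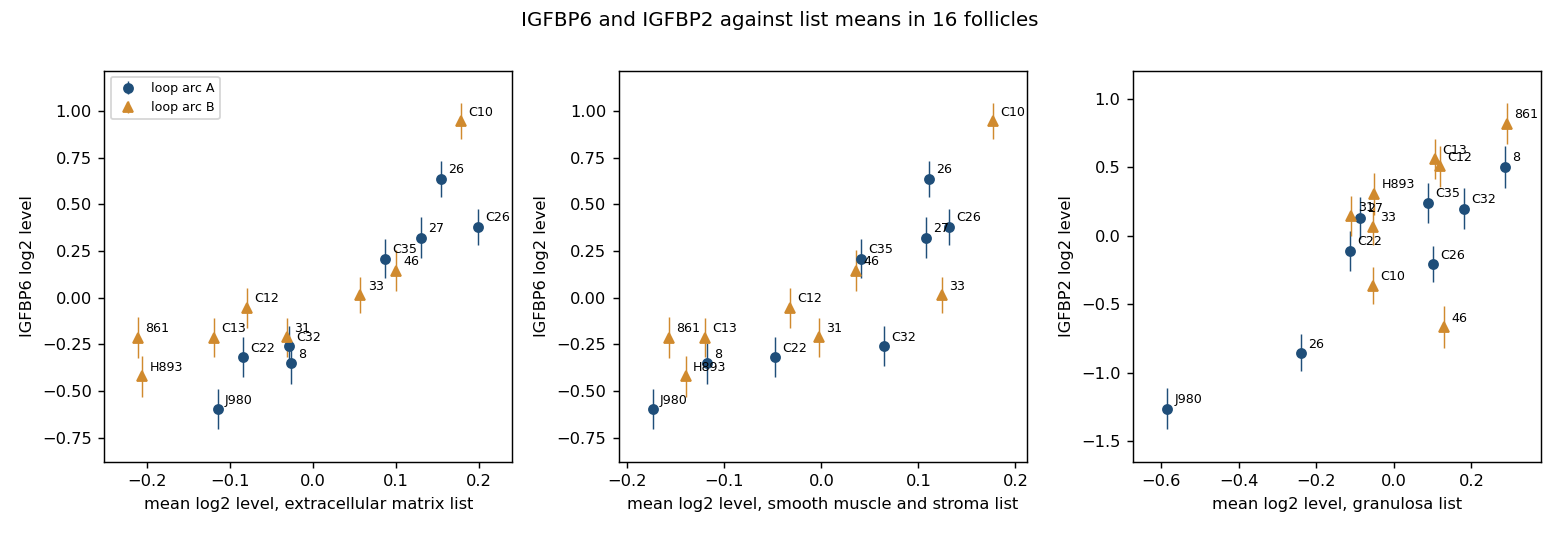
Log2 level of IGFBP6 (left and centre, y axis) and IGFBP2 (right, y axis) against the mean log2 level of a gene list (x axis) in 16 follicles, with bars of 1 SE. Circles are follicles of arc A and triangles of arc B. IGFBP6 tracks the matrix list in both arcs (r = 0.954 and 0.844), and J980 lies at the far low end of the granulosa list.

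IGFBP2 went with the granulosa list by Pearson's r only (r = 0.762, permutation p = 6.7e-04, adjusted 0.0100; rho = 0.659, permutation p = 0.00666, adjusted 0.0948). J980 had a list mean of -0.59, far below that of any other follicle, follicle 26 being the closest at -0.24. Without 861 and J980 r was 0.492, and fitted without J980 it was 0.545 (adjusted p = 0.0995), so the call was lost. The call was also lost without the level of follicle 26 (r = 0.735, adjusted p = 0.0648). Within arc A, which holds J980 and 26, r was 0.914, and within arc B 0.407.

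Of 18 granulosa genes, 6 (33.3%) had r of at least 0.5 with IGFBP2, against 7.18% of all genes and 22.3% of those past the F test. FST, the gene of follistatin, which binds and blocks activins, had the largest absolute r, 0.805 and 0.675 without J980. IGFBP3 had r = -0.621 with the same gene, the largest absolute r of a granulosa gene with IGFBP3. FST was at -2.05 ± 0.10 in J980. In follicle 861, it was at 1.11 ± 0.10, IGFBP2 at its highest and IGFBP3 at its lowest. The low list mean of J980 was not shared by all 18 granulosa genes, of which 10 (55.6%) differed between follicles, beside 11.8% of all genes. INHBA was at -2.69 and TNFAIP6 at -2.40 in J980, but AMH was at -0.01, FSHR at 0.09 and CITED2 at 0.76, its highest. INHBA, TNFAIP6, AMH, FSHR and CITED2 were named after their values were seen.

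IGFBP2 and IGFBP3 ran opposite to each other without passing (r = -0.60 with permutation p = 0.0151, adjusted 0.115, rho = -0.644 with permutation p = 0.00843, adjusted 0.0948). The r was -0.563 within arc A and -0.596 within arc B, and without 861 and C26 it was -0.512. In the fit without J980 it was -0.644 and passed (adjusted p = 0.043, permutation test), but with the arrays of J980 kept and only its level left out it was -0.529 and did not pass. The other pairs of the 5 genes had smaller r, the next being 0.416 for IGFBP6 with INSR (permutation p = 0.11, adjusted 0.366; rho = 0.397, permutation p = 0.129, adjusted 0.386).

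Without J980 and its arrays, 9 of 34 relations passed by r. Those of IGFBP2 with the matrix list (r = -0.677, adjusted p = 0.031) and with the stroma list (r = -0.68, adjusted p = 0.031) were then more negative and passed. All 16 follicles gave r of -0.428 (adjusted p = 0.366) and -0.263 (adjusted p = 0.606). IGFBP6 with the cell cycle list moved to r = -0.796 (adjusted p = 0.0068), against -0.33 (adjusted p = 0.505) with all follicles. IGFBP3 with the stroma list moved to r = 0.713 (adjusted p = 0.0226), against 0.325 (adjusted p = 0.505). With only the level of J980 left out and its arrays kept, 5 of 45 relations passed. The relations of IGFBP2 with the matrix and stroma lists and of IGFBP6 with the cell cycle list were among them, and that of IGFBP3 with the stroma list was not (r = 0.532). These p-values are from the same permutation test on 15 follicles. In J980 both IGFBP2 and IGFBP6 were at their lowest, while the matrix mean was -0.12 and the cell cycle mean -0.43.

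**Figure D4:**
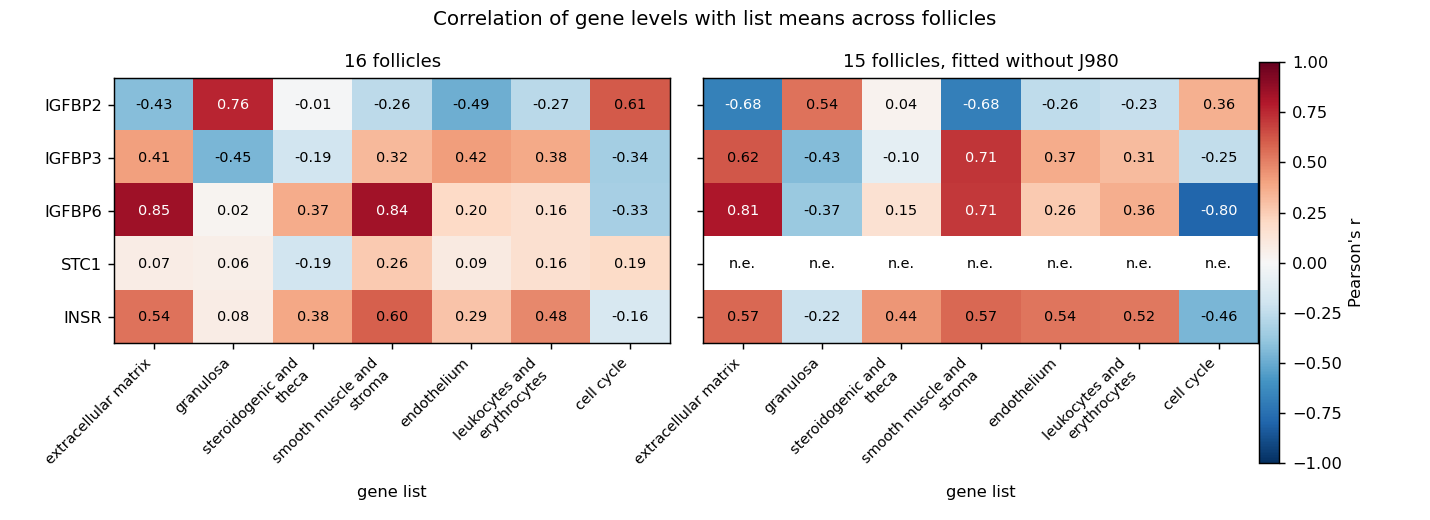
Pearson's r of each gene (rows) with the mean level of each gene list (columns), over 16 follicles on the left and over 15 in a fit without J980 on the right, where n.e. marks levels that could not be estimated. IGFBP6 keeps r of 0.71 to 0.85 with the matrix and stroma lists on both sides, and IGFBP2 turns more negative with them without J980.

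Of the 17 measured genes of the steroidogenic and theca list, 7 (41.2%) differed between follicles, beside 11.8% of all genes. None of the 5 genes passed with this list. The r was -0.01 for IGFBP2, -0.19 for IGFBP3, 0.37 for IGFBP6, -0.19 for STC1 and 0.38 for INSR (lowest adjusted p of r 0.409 and of rho 0.475, permutation test). Without follicles 31 and C13 that of INSR was 0.04. The steroidogenic gene of largest absolute r with INSR was HSD3B1, which converts pregnenolone to progesterone (r = 0.59). With STC1 it was SCARB1, the HDL receptor (r = -0.444), and with IGFBP6 it was TSPO, a mitochondrial cholesterol-binding protein (r = 0.619). TSPO did not pass the limma F test itself (adjusted p = 0.225). With IGFBP2 it was the cytochrome P450 reductase gene POR (r = 0.808) and with IGFBP3 the steroid reductase gene SRD5A1 (r = -0.634), neither of which passed either (adjusted p = 0.171 and 0.745, limma).

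INSR had r = 0.542 with the matrix list (permutation p = 0.031, adjusted 0.199; rho = 0.579, permutation p = 0.0208, adjusted 0.146) and 0.597 with the stroma list (permutation p = 0.0153, adjusted 0.115; rho = 0.612, permutation p = 0.0136, adjusted 0.123), and neither passed. Of 38 matrix genes, 12 (31.6%) had r of at least 0.5 with INSR, but so did 11.6% of all genes. Among these SPARC, a collagen-binding matrix protein, had r = 0.876. SPARC itself did not pass the F test (adjusted p = 0.202, limma), and its 4 features did not track each other (median r -0.165).

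STC1 went with none of the lists. Its 11 relations had r between -0.19 and 0.26 and adjusted permutation p of at least 0.606 by r. The granulosa gene of largest absolute r with STC1 was the cadherin gene CDH2 (r = 0.551) and the matrix gene was THBS2, a thrombospondin (r = 0.452). THBS2 differed between follicles (adjusted p = 3.93e-04, limma), with 0.56 ± 0.09 in C26 and -0.48 ± 0.10 in 861.

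Lists for other cells and for cell division gave no relation past the threshold with all 16 follicles. The endothelial list had 1 of 10 genes differing between follicles, the list for leukocytes and erythrocytes 9 of 20 and the cell cycle list 14 of 28, or 10%, 45% and 50%, beside 11.8% of all genes. The largest r among them was that of IGFBP2 with the cell cycle list, 0.611 (permutation p = 0.0116, adjusted 0.115; rho = 0.456, permutation p = 0.0784, adjusted 0.321), and without 31 and J980 it was 0.427. The cell cycle mean was 0.32 in 31, the highest, and -0.43 in J980, the lowest. The values are ratios, so whether a cell type was present in a follicle cannot be read from them, and the part of these cells in the levels of the 5 genes was not tested.

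The genes whose levels were most like each of the 5 over the 16 follicles were sought among the 1061 genes past the F test, as a description with no test. The points share arrays, so part of their error is shared. For IGFBP2 they were TBC1D31 (r = 0.90), TMEM120A (r = 0.865) and CIAO2A, of cytosolic iron-sulphur protein assembly (r = 0.842). The most opposite were TPSB2, a mast cell tryptase (r = -0.752), and ACYP2, an acylphosphatase (r = -0.706). TBC1D31 was lowest in J980, at -0.85, as IGFBP2 was, and r without J980 was 0.841.

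For IGFBP3 the nearest were NRXN2 (r = 0.753), DUSP5, a phosphatase of ERK kinases (r = 0.683), and the transcriptional repressor SNAI2 (r = 0.682). CMC4 (r = -0.832) and EMC6, of an endoplasmic reticulum insertion complex (r = -0.819), were the most opposite. For IGFBP6 they were COL6A3, the mitochondrial protease YME1L1 (r = 0.901) and the ribosomal protein gene RPL37A (r = 0.90). The 2 features of RPL37A disagreed (r = -0.131), as did those of DUSP5 (r = 0.166). The most opposite to IGFBP6 were UQCRFS1, a subunit of the respiratory cytochrome bc complex (r = -0.82), and C15H11orf71 (r = -0.817).

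For STC1 likeness was lower. CARM1, an arginine methyltransferase (r = 0.737), PLK5 (r = 0.675) and SECTM1A (r = 0.568) were nearest, with BCAT2, a branched-chain aminotransferase (r = -0.653), and CAPN6 (r = -0.63) opposite. CARM1 was at 1.22 in C32, the follicle where STC1 was highest. For INSR the nearest were SELENOP, the selenium carrier protein gene (r = 0.894), DDX5, an RNA helicase (r = 0.851), and DYNC1I2, a dynein intermediate chain (r = 0.85), and the most opposite were SARM1 (r = -0.875) and ARIH1, a ubiquitin ligase (r = -0.818). The 3 features of DDX5 did not track each other (median r 0.04). SELENOP was highest in C35 at 0.97, as INSR was. With each arc centred on its own mean, the r of these 25 genes with their gene kept its sign and lay between 0.616 and 0.92 in size.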

How the data were processed

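Per the labels' protocols, RNA was labelled with the Genisphere 3DNA kit, and GenePix Pro 4.0.1.12 was used to read the arrays. The authors deposited 1 log ratio per feature and array, read here as log2. One reaches 6.32 in size, more than the 4.82 possible for base 10 with 16-bit scans. Were the ratios natural logs, log2 levels would be 1.44 times as large. How spots were filtered, corrected for background or normalized is not stated in the labels. Deposited array medians lay between -0.014 and 0.0064 and SDs between 0.28 and 0.54. Signal over background is unknown, and the number of arrays limits the precision.

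Features were named from the platform annotation of 2007 (13605 of 17418 had 1 symbol), and 13575 were matched to RefSeq by gene ID with 0 changes of symbol. No sequences of these genes were used here. Arrays were centred on their medians. Features with values on at least 20 arrays were averaged per gene and fitted with a follicle effect and a common dye term. Moderated variances came from limma 3.58.1 (R 4.3.3). The F statistic was computed from each gene's own arrays, and p-values were adjusted by Benjamini-Hochberg over all 9026 genes. The F test was tried on ratios simulated with the real loop. The permutation test was tried on independent simulated levels, which do not hold the linked errors of the loop. Figures were drawn with matplotlib 3.10.9.

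The genes, lists and tests were chosen with earlier results of these data known. The lists compared were extracellular matrix, granulosa, steroidogenic and theca, smooth muscle and stroma, endothelium, leukocytes and erythrocytes, and cell cycle. Genes named beyond the 5 are, for each of them, the 3 most like and 2 most opposite among genes past the F test and the gene of largest absolute r in the matrix, granulosa and steroidogenic lists, and from the IGF and insulin list the genes past the test and the next 2 by p, with other ligands, receptors and neighbours of the binding protein genes added after their values were seen. The fits without 861, C32 or C35 and those by arc were also added then. Some matrix, granulosa, stroma, endothelial and leukocyte genes were also named then. Alternatives varied the array scaling, the missing-value filter, the dye term, the moderation, the features per gene, the way a list was averaged, and the arrays and follicles included. Permutation tests were run with numpy 2.4.6, on ranks from scipy 1.17.1 for rho.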

Additional observations from a re-analysis of the deposited data

How the results depend on the processing

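All 5 genes kept their calls with deposited values not centred again, with arrays brought to one scale, with features on at least 16 arrays, without moderation, with 1 feature per gene, with the loop arc as a block, and without C32 or C35. Exceptions were STC1 (adjusted p = 0.119) and INSR (0.458) without the dye term and IGFBP3 without 861 (0.0728). STC1 had no estimate with features on all 24 arrays, without J980 and without the array of 27 with C32. When each array was left out in turn, the highest adjusted p was 0.00144 for IGFBP2, 0.0195 for IGFBP3, 0.00272 for IGFBP6, 0.0065 for STC1 and 0.0304 for INSR, so no call was lost (all limma). The number of genes differing was 608 without the dye term, 589 without moderation, 664 without J980, 535 without 861, and 684 to 1175 without single arrays. The number of relations past the threshold was 5 with features on all 24 arrays, 9 without J980, 3 to 6 without single arrays and 2 to 5 without the level of single follicles. With features on all 24 arrays the endothelial list held 5 genes in place of 10, without PECAM1, and its r with INSR was -0.666, against 0.286. The fit used the pairing of 2 follicles on each array. No other paired analysis was possible because each heifer gave 1 follicle and the labels give no replicate numbers.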

Other observations

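INSR and STC1 differed in how many genes shared their pattern over the 16 follicles. For INSR, 11.6% of the other 9025 genes had r of at least 0.5 and 12.9% had r of -0.5 or less. For STC1, fitted on 20 arrays with its highest level, in C32, resting on 1, the shares were 0.587% and 0.698%. For IGFBP2 they were 7.18% and 4.5%, for IGFBP3 5.85% and 6.24%, and for IGFBP6 5.2% and 4.8%. INSR was also the gene whose mean level differed most between the arcs of the loop, at 0.21 in arc A and -0.21 in arc B, a difference of 0.42 ± 0.17 that rests on the 2 arrays joining them. With each arc centred on its own mean, the shares for INSR were 9.8% and 9.52%, and those for STC1 1.09% and 1.26%. The part of array error in these shares, and that of the level of STC1 in C32, was not tested.

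Follicle 861 held an extreme level of 3 of the 5 genes, the highest of IGFBP2 and the lowest of IGFBP3 and STC1, and its INSR was also low at -0.44. J980 held the lowest level of IGFBP2 and IGFBP6. It was the highest follicle for none of them, with IGFBP3 at 0.48, next to C26. These follicles were picked out after their values were seen. INSR also had r of -0.801 with EGFL7 and of -0.731 with ESAM, both endothelial genes that did not pass the F test (adjusted p = 0.433 and 0.193, limma). The endothelial gene that passed, PECAM1 (adjusted p = 0.00511, limma), went the other way, with r of 0.511. INSR had r of 0.759 with CORO1A, an actin-binding protein of leukocytes. Of the 20 genes in the list for leukocytes and erythrocytes, 4 (20%) had r of at least 0.5 with INSR, against 11.6% of all genes. In that list 1 gene had r of -0.5 or less, and the list as a whole had r of 0.477 (permutation p = 0.0622, adjusted 0.311). The endothelial list as a whole had r of 0.286 with INSR (permutation p = 0.284, adjusted 0.606). EGFL7, ESAM, PECAM1 and CORO1A were named after their values were seen.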
